A study of Mus musculus with 6 samples.

Results

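The genes described here are 9 myeloid signalling genes that act just below receptors carrying an immunoreceptor tyrosine-based activation motif (ITAM), namely Lyn, Fgr, Syk, Btk, Blnk, Vav1, Plcg2, Inpp5d and Ptpn6. They were chosen by function and matched by gene symbol among the 54752 genes counted in each library, and all 9 were found. Bulk RNA-seq was performed on the whole right hippocampus of 6 male wild-type C57BL/6 mice, 3 with sham surgery and 3 with bilateral carotid artery stenosis (BCAS). The labels give the strain as C57BL/6, and the paper's methods give it as C57BL/6 J. The age of the mice in the labels was 14 weeks. BCAS narrows both common carotid arteries with microcoils and lowers blood flow to the forebrain, and the narrower coil was on the right side in this study. Sham mice had the operation without coils. The tissue was taken 3 weeks after surgery, 1 library was made from each mouse, and the mice are numbered 1 to 3 in each group as in the labels. The comparison addressed how chronic hypoperfusion alters hippocampal transcripts.

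ITAM receptors such as TREM2 and the Fc receptors have no enzyme of their own and pass their signal through small adaptors, mainly DAP12 (encoded by Tyrobp) and the Fc receptor gamma chain (Fcer1g). Src family kinases phosphorylate the ITAM tyrosines, Syk docks there, and Syk then acts through adaptors, Tec family kinases, Vav exchange factors and phospholipase C gamma on calcium, actin and phagocytosis. Inpp5d (SHIP1) and Ptpn6 (SHP-1) are phosphatases that restrain the pathway. In the brain parenchyma most of these genes are transcribed chiefly in microglia, and Inpp5d and Plcg2 are known from genetic studies of Alzheimer's disease.

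All 9 genes were up-regulated in BCAS mice. The median log2 fold change of the 9 genes was 3.01, with a range of 2.29 for Plcg2 to 6.01 for Fgr. All 9 were differentially expressed genes (DEGs), that is, they had an adjusted P value under 0.05 in edgeR's quasi-likelihood test over all genes and an absolute log2 fold change above 1. Of the 18617 genes tested, 1571 (8.44%) were up-regulated DEGs and 184 (0.988%) were down-regulated DEGs. The median log2 fold change over all tested genes was 0.02, and 359 tested genes had a value at least as high as the median of the 9. In each of the 9 genes every BCAS mouse lay above every sham mouse, which held for 25.3% of tested genes. The genes were assembled with earlier results of these libraries known, so these counts describe the 9 genes and are not evidence gathered independently of the data. A larger number of cells of a type and more RNA per cell cannot be told apart in bulk tissue, and this bears on every value below.

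Sham libraries held 34301711 to 35607098 counts and BCAS libraries 29652456 to 31892083. A count of 3, taken here as the limit of detection, corresponded to 0.0875 to 0.0995 CPM (counts scaled to a common library total), normalized by edgeR's trimmed mean of M values (TMM), and covers counting error alone. The 3 mice of a group differed in ways the groups do not explain. BCAS mouse 3 was the highest of the 6 libraries in all 9 genes, as in 83.4% of all up-regulated DEGs and 27.2% of tested genes. Without this mouse, all 9 genes were still up-regulated DEGs, among 1218 in all (6.38% of tested genes). Choroid plexus markers summed to 71.1 to 4093 CPM in sham mice and 40.9 to 5944 CPM in BCAS mice, which overlapped, and none of the 6 was a DEG.

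**Figure D1:**
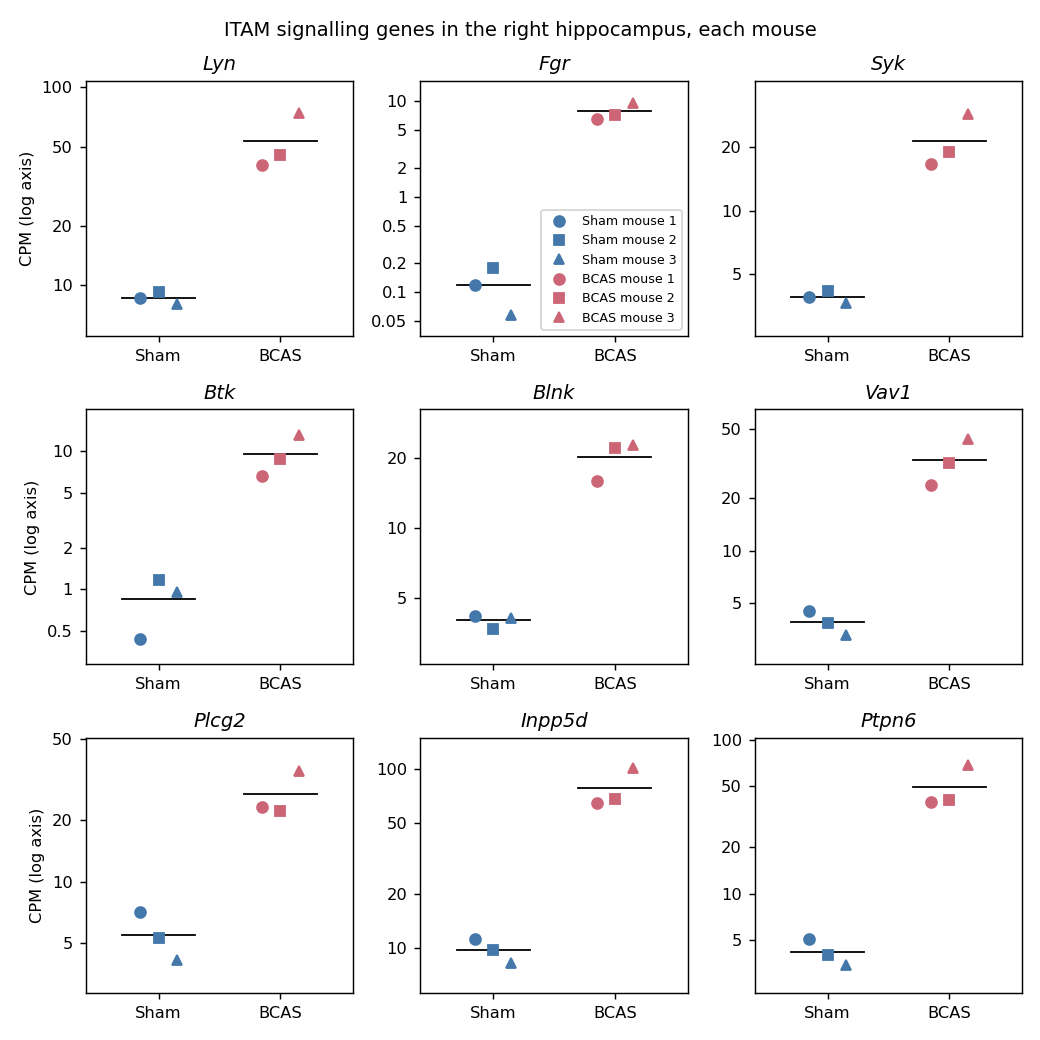
TMM-normalized CPM of the 9 genes in each mouse, on a log axis that differs between panels. Points are mice and horizontal lines are group means, and in every panel all 3 BCAS mice lie above all 3 sham mice with BCAS mouse 3 at the top.

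Since all 9 genes rose, their promoters were searched for motifs. Sequences are shown for the 4 genes that carry, within the stretch printed, the core of the motif bound by PU.1, the transcription factor that directs myeloid gene expression. RefSeq promoter windows (build GRCm38.p6, 250 bases before to 50 bases after the start) were present for 8 of the 9 genes. Lyn was not matched. Syk had more than 1 window, so the 8 genes had 9 windows. The stretches below are the 120 bases just before the RefSeq start, 5′ to 3′ on the strand of the gene. The locations are chr17:57278980-57279099 for Vav1 and chr1:87620192-87620311 for Inpp5d, both on the forward strand, chr4:132973975-132974094 for Fgr on the forward strand, and chr6:124738710-124738829 for Ptpn6 on the reverse strand. Capitals mark GAGGAAGT in Vav1 and Inpp5d and its core GGAAGT in Fgr and Ptpn6.
Vav1: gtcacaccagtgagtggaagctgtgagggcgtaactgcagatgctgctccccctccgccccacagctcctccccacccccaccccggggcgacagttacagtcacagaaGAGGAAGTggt
Inpp5d: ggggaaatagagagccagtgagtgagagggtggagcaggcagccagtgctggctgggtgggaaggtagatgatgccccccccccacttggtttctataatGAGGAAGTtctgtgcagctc
Fgr: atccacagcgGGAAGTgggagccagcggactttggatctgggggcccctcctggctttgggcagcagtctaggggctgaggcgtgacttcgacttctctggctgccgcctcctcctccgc
Ptpn6: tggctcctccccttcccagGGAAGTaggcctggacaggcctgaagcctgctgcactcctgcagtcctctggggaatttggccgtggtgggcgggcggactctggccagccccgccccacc

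The 8-letter motif GAGGAAGT, searched on both strands, lay in the windows of 2 of the 8 genes, Vav1 and Inpp5d, and in 3.20% of the 32851 promoter windows of the table. Its first base was 11 bases before the start of Vav1 and 20 bases before the start of Inpp5d, as written in the sequences above. The shorter core GGAAGT was chosen after the sequences had been seen. It lay in the windows of 6 of the 8 genes, namely Blnk, Fgr, Inpp5d, Ptpn6, Syk and Vav1, against 23.8% of all windows. A gene was counted if any of its windows matched, whereas the shares are over single windows. Every match to GAGGAAGT is also a match to its core. Of 4 other motifs, searched on both strands, none matched in any of the 8 genes. These were GGAANNGAA, an ETS-IRF composite found in 8.24% of all windows, GAAANNGAA, an interferon response element found in 8.56%, TGTGGT, a RUNX motif found in 16.8%, and TATAAA, the TATA box, found in 13.6%. The first pair of these motifs can overlap each other. A match here is a description of letters, and the absence of a match says only that those letters are not in these windows.

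Lyn and Fgr are the Src family kinases of the set, the enzymes that phosphorylate ITAM tyrosines. Lyn (ENSMUSG00000042228.14, chr4:3678115-3813122, forward strand, mm10) was at 8.62, 9.22 and 8.05 CPM in sham mice 1 to 3 and at 40.3, 45.6 and 74.1 CPM in BCAS mice 1 to 3. The log2 fold change of Lyn was 2.63 (SE 0.23, adjusted P = 0.000107 in edgeR), from 8.63 ± 0.586 CPM to 53.3 ± 18.2 CPM (SD, n = 3 in each group). The groups did not overlap, and the lowest BCAS mouse was 4.37 times the highest sham mouse. Of the Lyn exon bases, 6.09% are shared with Gm26857 on the opposite strand, and strand was ignored, so a read overlapping both genes was left out of the Lyn counts.

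Fgr (ENSMUSG00000028874.14, chr4:132974095-133001910, forward strand) was the gene with the largest change of the 9 and the only one near the limit of detection in sham mice. Sham mice 1 to 3 had 4, 6 and 2 counts of Fgr, or 0.118, 0.180 and 0.0583 CPM. BCAS mice 1 to 3 had 213, 220 and 304 counts, or 6.56, 7.29 and 9.75 CPM. Fgr was thus below the limit of detection in sham mouse 3 and just above it in the other 2 sham mice, whereas all 3 BCAS mice were far above it. Fgr rose by 6.01 on the log2 scale (SE 0.35, adjusted P = 1.15e-05 in edgeR). The ratio of the summed counts, 737 against 12 and scaled to library size, was 66.5-fold with an exact 95% interval of 37.8 to 129, which covers counting error alone. Both mates of a pair were counted, and with the sums halved to 6 and 368 the interval was 30.2 to 182.

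Syk, the kinase that binds phosphorylated ITAMs, is encoded at chr13:52583173-52648792 on the forward strand (ENSMUSG00000021457.14). Its level was 3.90, 4.16 and 3.67 CPM in sham mice and 16.6, 19.0 and 28.6 CPM in BCAS mice. The sham mice lay close together at 3.91 ± 0.244 CPM (SD, n = 3), whereas the BCAS mice spread more widely at 21.4 ± 6.33 CPM without overlap. The log2 fold change of Syk was 2.45 (SE 0.21, adjusted P = 4.80e-05 in edgeR).

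Btk, the Tec family kinase that activates phospholipase C gamma, is encoded on the X chromosome (ENSMUSG00000031264.13, chrX:134542336-134583570, reverse strand). Sham mice had 0.443, 1.17 and 0.962 CPM and BCAS mice 6.65, 8.72 and 13.0 CPM. Sham mouse 1 had less than the other 2 sham mice, with 15 counts against 39 and 33, and every BCAS mouse had at least 216 counts. Btk rose by 3.46 on the log2 scale (SE 0.37, adjusted P = 0.000189 in edgeR), and its standard error was the largest of the 9 genes.

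Blnk, an adaptor that links Syk to Btk and phospholipase C gamma and is best known from B cells, lies at chr19:40928927-40994535 on the reverse strand (ENSMUSG00000061132.13). It was at 4.22, 3.71 and 4.14 CPM in sham mice and at 15.9, 21.9 and 22.6 CPM in BCAS mice. Blnk had a log2 fold change of 2.32 (SE 0.16, adjusted P = 1.95e-05 in edgeR). In Blnk, BCAS mice 2 and 3 were close and BCAS mouse 1 was lower, and BCAS mouse 3 was only 1.20 times the mean of the other 2 BCAS mice. In the other 8 genes that ratio was 1.41 for Fgr to 1.73 for Lyn, beside 1.54 for Csf1r and 1.53 for C1qa, both markers of microglia.

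B cell markers were read beside Blnk. Ms4a1, which encodes the B cell protein CD20, was too low to test, at no more than 0.369 CPM in any mouse. Of the 7 B cell markers tested, 2 were up-regulated DEGs, against 8.44% of all tested genes, namely Cd79b (log2 fold change 2.31) and Ighm (1.93). The B cell list summed to 13.5 to 25.9 CPM in sham mice and 51.2 to 81.0 CPM in BCAS mice, most of it Ighm. The part of B cells in the change of Blnk was not tested.

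Vav1 and Plcg2 are effectors of the pathway. Vav1, a guanine nucleotide exchange factor for Rac (ENSMUSG00000034116.17, chr17:57279100-57328031, forward strand), was at 4.49, 3.80 and 3.27 CPM in sham mice and at 24.0, 31.9 and 44.0 CPM in BCAS mice. Its log2 fold change was 3.11 (SE 0.23, adjusted P = 4.09e-05 in edgeR). Plcg2, the phospholipase that releases the second messengers of the pathway (ENSMUSG00000034330.10, chr8:117498291-117635142, forward strand), was at 7.08, 5.27 and 4.11 CPM in sham mice and at 23.4, 22.2 and 35.1 CPM in BCAS mice. Plcg2 had a log2 fold change of 2.29 (SE 0.24, adjusted P = 0.000215 in edgeR). The groups of both genes were apart, and Plcg2 had the smallest gap of the 9, with the lowest BCAS mouse at 3.13 times the highest sham mouse.

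Inpp5d and Ptpn6, the phosphatases, rose together with the kinases. Inpp5d (ENSMUSG00000026288.14, chr1:87620312-87720507, forward strand), which removes the 5-phosphate of the lipid made by PI3-kinase, was at 11.2, 9.67 and 8.25 CPM in sham mice and at 65.0, 67.6 and 101 CPM in BCAS mice. The log2 fold change of Inpp5d was 3.01 (SE 0.20, adjusted P = 3.08e-05 in edgeR). Ptpn6 (ENSMUSG00000004266.15, chr6:124720707-124738714, reverse strand), a tyrosine phosphatase recruited by inhibitory receptors, was at 5.05, 4.01 and 3.41 CPM in sham mice and at 39.7, 40.5 and 68.2 CPM in BCAS mice. Its log2 fold change was 3.57 (SE 0.26, adjusted P = 5.32e-05 in edgeR), the second largest of the 9 after Fgr. BCAS mice 1 and 2 were close to each other in both phosphatases, with BCAS mouse 3 apart. Of the Ptpn6 exon bases, 6.96% are shared with Gm20531 on the opposite strand. The other 7 genes apart from Lyn and Ptpn6 share no exon base with another gene in the annotation used.

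The balance of phosphatases and activators was described by the mean log2 CPM of Inpp5d and Ptpn6 minus that of Syk, Btk, Plcg2 and Vav1 in each library. It was 1.42, 0.97 and 0.99 in sham mice and 1.68, 1.50 and 1.59 in BCAS mice. On this score the BCAS mice lay above the sham mice by a mean of 0.46. The score leaves out the activators Lyn, Fgr and Blnk. With all 7 other genes in place of these 4, chosen after the data had been seen, the values were 1.67, 1.25 and 1.32 in sham mice and 1.67, 1.47 and 1.64 in BCAS mice. The groups then overlapped and the difference was 0.18, so the shift depends on which activators are taken. No test was run on either score.

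The order of the fold changes was Fgr, Ptpn6, Btk, Vav1, Inpp5d, Lyn, Syk, Blnk and Plcg2. Among neighbours in this order, the approximate 95% intervals of the log2 fold changes did not overlap for Fgr and Ptpn6 and overlapped for the other 7 pairs. When neighbours were set against each other within each library, the log2 ratios of the groups were apart for Fgr over Ptpn6 (difference 1.97), Inpp5d over Lyn (0.41) and Lyn over Syk (0.17), all higher in BCAS mice, and overlapped for the other 5. These within-library ratios used log2 CPM with a prior count of 2, which draws low genes such as Fgr toward the mean.

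Levels were compared between genes only per length, as CPM per kilobase of exon. In sham mice Lyn was the highest at 2.12, followed by Ptpn6 (1.48), Plcg2 (1.28), Inpp5d (1.28), Vav1 (1.04), Blnk (0.672), Syk (0.418), Btk (0.272) and Fgr (0.0307). The ranges of the 3 sham mice were apart between Lyn and Ptpn6, and at each step from Vav1 down to Fgr, while Ptpn6, Plcg2, Inpp5d and Vav1 overlapped as neighbours. In BCAS mice Ptpn6 was the highest per kilobase at 17.7, followed by Lyn (13.1), Inpp5d (10.3), Vav1 (9.03), Plcg2 (6.25), Blnk (3.36), Btk (3.00), Syk (2.29) and Fgr (2.04). Here only Plcg2 and Blnk were apart as neighbours. Per length, the sham level of Fgr was below that of every other gene of the set, and in BCAS mice its range overlapped that of Syk.

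**Figure D2:**
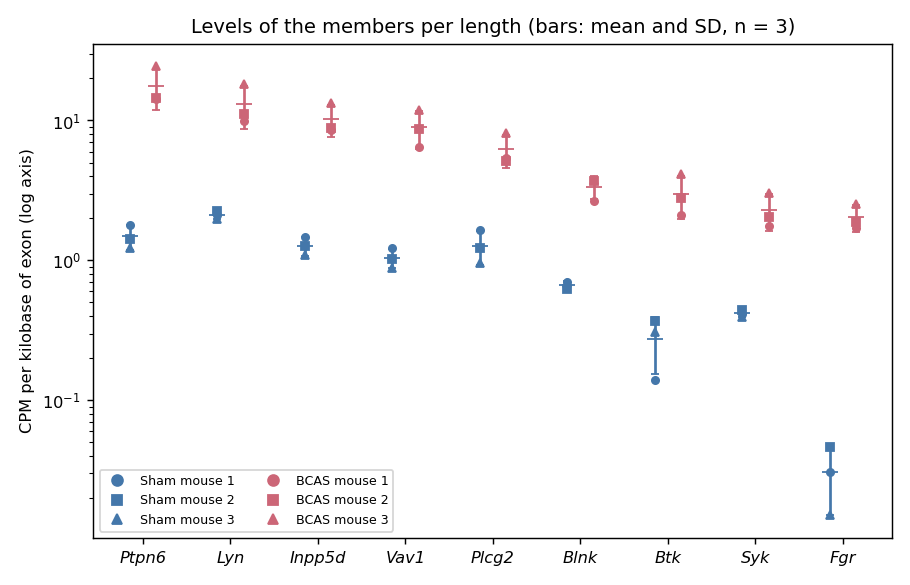
CPM per kilobase of exon in each mouse on a log axis, ordered by the BCAS mean. Short bars are means and error bars SD of 3 mice. Ptpn6 is highest in BCAS mice at 17.7 and Lyn in sham mice at 2.12, and Fgr is lowest in both groups.

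Most of the 9 genes have a relative of broader expression, and pairs were compared within each library as the difference of log2 CPM. Of 9 pairs run, 8 are described here. Plcg1, the phospholipase C gamma found in most cells, was not a DEG (log2 fold change 0.08, adjusted P = 0.563 in edgeR), and its CPM overlapped between groups. The log2 ratio of Plcg2 to Plcg1 was -3.41, -3.68 and -3.96 in sham mice and -1.77, -1.61 and -1.04 in BCAS mice. The groups were apart, with a difference of 2.21.

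The same direction held for the ratios of Lyn to Fyn (difference 2.74), Fgr to Src (5.59), Ptpn6 to Ptpn11 (3.40), Inpp5d to Inppl1 (2.03), Vav1 to Vav2 (1.86), Btk to Tec (1.00) and Fgr to Lyn (2.93). In each of these 7 pairs all 3 BCAS mice were above all 3 sham mice. Each of the 8 differences had P = 0.1 in the exact two-sided permutation test, which is the smallest value that 3 against 3 mice can give, and 0.1 after adjustment over the 9 pairs run. No pair could therefore reach a P value under 0.05.

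The relatives themselves differed. Fyn and Src, the Src family kinases of most brain cells, had log2 fold changes of -0.17 (adjusted P = 0.116) and -0.09 (adjusted P = 0.463) in edgeR. Ptpn11 (SHP-2), the broad counterpart of Ptpn6, had 0.13 (adjusted P = 0.285). Inppl1 (SHIP2) had 0.96 (adjusted P = 0.000232), just under the fold threshold of a DEG, and Vav2 had 1.21 (adjusted P = 0.000318), just over it. Tec, the relative of Btk, rose by 2.44 (adjusted P = 7.83e-05).

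**Figure D3:**
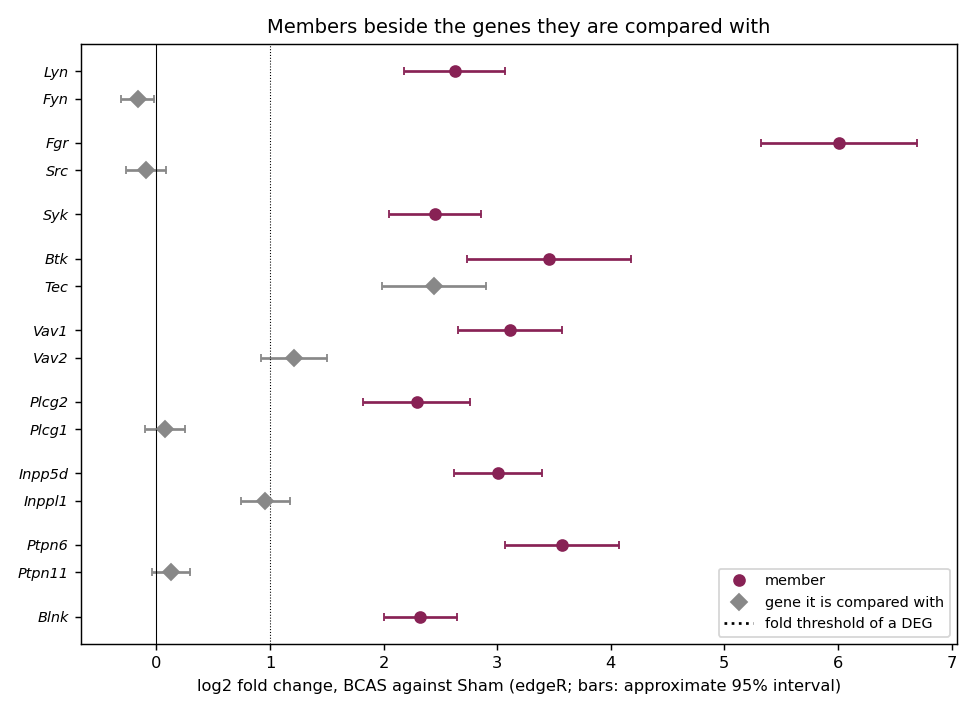
Log2 fold changes of BCAS against sham mice from edgeR, with approximate 95% intervals, for the 9 genes (circles) and the genes they were compared with (diamonds). The 9 genes lie between 2.29 and 6.01, while Fyn, Src, Plcg1 and Ptpn11 lie between -0.17 and 0.13.

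The 9 genes were also set against 12 microglia markers in the same library. These markers all rose, with log2 fold changes of 1.54 for P2ry12 to 3.95 for C1qa. Their sum was 413 to 435 CPM in sham mice and 2717 to 4475 CPM in BCAS mice, and their mean log2 CPM rose by 2.77. The part of microglial abundance in the change of the 9 genes was not tested. The values below give the difference between each gene and the markers' mean log2 CPM. How many of all tested genes have groups that lie apart on this scale was not counted.

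Relative to the microglia markers, Fgr was higher in every BCAS mouse than in any sham mouse. Its values were -7.20, -6.71 and -7.81 in sham mice and -4.48, -4.41 and -4.64 in BCAS mice, a difference of 2.73. All 12 markers had a smaller log2 fold change than Fgr. Ptpn6 was also higher against the markers' mean in all BCAS mice, with -2.37, -2.63 and -2.95 in sham mice and -1.89, -1.95 and -1.84 in BCAS mice, a difference of 0.76. For Ptpn6, 9 of the 12 markers had a smaller log2 fold change.

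Syk and Blnk went the other way. Syk was at -2.74, -2.58 and -2.85 in sham mice and at -3.15, -3.04 and -3.10 in BCAS mice, so its rise was smaller than that of the markers' mean by 0.37. Blnk was at -2.63, -2.74 and -2.68 in sham mice and at -3.21, -2.83 and -3.43 in BCAS mice, with a difference of -0.48. Of the 12 markers, 4 had a smaller log2 fold change than Syk, and 4 had a smaller one than Blnk. In the remaining 5 genes the groups overlapped on this scale, with differences of 0.65 for Btk, 0.29 for Vav1, 0.21 for Inpp5d, -0.20 for Lyn and -0.49 for Plcg2. The sham mice spread over 1.35 log2 units in Btk and 0.80 in Plcg2, and the BCAS mice over 0.31 and 0.16. Single sham mice weighed on these differences, since Btk went to 0.25 and Plcg2 to -0.29 without sham mouse 1, Lyn to -0.12 without sham mouse 2, and Vav1 to 0.16 and Inpp5d to 0.08 without sham mouse 3.

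**Figure D4:**
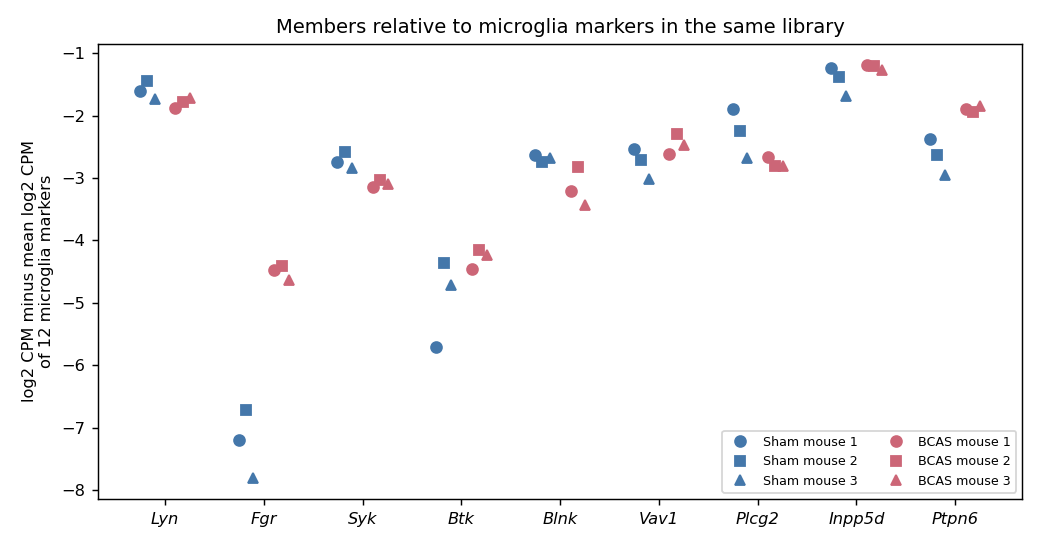
Log2 CPM of each of the 9 genes minus the mean log2 CPM of 12 microglia markers in the same library, 1 point for each mouse. BCAS mice lie above sham mice in Fgr and Ptpn6 and below them in Syk and Blnk, and the groups overlap in the other 5 genes.

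Markers of other cell types were read in the same libraries. Of 8 tested markers of perivascular macrophages and monocytes, 6 were up-regulated DEGs, against 8.44% of all tested genes. The list summed to 60.5 to 94.1 CPM in sham mice and 128 to 216 CPM in BCAS mice, most of it Fn1 (mean 68.6 and 156 CPM), which vascular cells also express. The monocyte markers of this list were among the 6. Ccr2, a chemokine receptor, had 18, 14 and 19 counts in sham mice and 99, 132 and 176 in BCAS mice (log2 fold change 3.11, adjusted P = 0.000106 in edgeR). Ly6c2 had 0, 1 and 0 counts in sham mice and 39, 74 and 71 in BCAS mice. Of 9 tested T and NK cell markers, 8 were up-regulated DEGs, against the same 8.44%, at a sum of 1.21 to 2.36 CPM in sham mice and 11.0 to 12.6 CPM in BCAS mice. For neutrophils, another cell type known for Fgr, 1 of 9 markers was tested, S100a9 (log2 fold change 1.25, adjusted P = 0.198 in edgeR). Of the untested ones, S100a8 had 2, 4 and 9 counts in sham mice and 5, 36 and 24 in BCAS mice, Ngp had 19, 6 and 25 counts in sham mice and 4, 0 and 0 in BCAS mice, and Ly6g was at 0 in all 6 libraries. The list summed to 0.808 to 3.15 CPM in sham mice and 0.985 to 3.25 CPM in BCAS mice. Of the 10 neuron markers, 8 were lower in BCAS mice at an adjusted P value under 0.05 alone (13.4% of all tested genes were), with a median log2 fold change of -0.58. Of 10 markers of hippocampal excitatory neurons, 4 were down-regulated DEGs, against 0.988% of tested genes. All 7 astrocyte markers were higher in BCAS mice at an adjusted P value under 0.05 alone (18.1% of tested genes were), and their sum was 3618 to 3974 CPM in sham mice and 8455 to 9066 CPM in BCAS mice. The median log2 fold change of the astrocyte markers was 0.66. Of the 7, 2 were up-regulated DEGs, against 8.44% of all tested genes, and Gfap had the largest rise. The part of these cell types in the rise of the 9 genes was not tested.

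The other genes of the pathway were counted from lists of 80 genes, of which 77 passed the low count filter. Of these, 34 were up-regulated DEGs and 1 was a down-regulated DEG, against 8.44% and 0.988% of all tested genes. At an adjusted P value under 0.05 alone, 48 were higher and 4 were lower, against 18.1% and 13.4% of tested genes. The filter left out Blk, Txk and Clnk.

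All 3 adaptors that carry an ITAM or a YINM motif were up-regulated DEGs, against 8.44% of all tested genes, with a median log2 fold change of 3.66. Tyrobp, encoding DAP12, lay at 7.36 to 8.16 CPM across the sham mice and at 103 to 156 CPM across the BCAS mice, and its log2 fold change was 3.99 (SE 0.16, adjusted P = 3.59e-06 in edgeR). Fcer1g had 3.66 and Hcst, encoding DAP10, had 1.91 (adjusted P = 0.0185). Hcst lost its call when sham mouse 1 (adjusted P = 0.063), sham mouse 2 (0.0518) or BCAS mouse 3 (0.0732) was left out, in edgeR. DAP12 and the gamma chain carry the ITAMs to which Syk binds, whereas DAP10 recruits PI3-kinase.

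Of the other Src family kinases, 1 of 6 tested was an up-regulated DEG, against 8.44% of all tested genes, and the median log2 fold change was 0.47. Of the other Syk and Tec family kinases, 1 of 4 tested was an up-regulated DEG, Tec, against the same 8.44%. Zap70, the counterpart of Syk in T cells, had a log2 fold change of -0.56 (adjusted P = 0.0865 in edgeR).

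Downstream, 13 of 21 tested adaptors and scaffolds were up-regulated DEGs and none was down-regulated, with a median log2 fold change of 1.58, against 8.44% and 0.988% of all tested genes. Lat2, a transmembrane scaffold of myeloid and B cells, had the largest value of this list at 3.89 (adjusted P = 2.13e-05 in edgeR). In the PI3-kinase and calcium arm, 8 of 19 genes were up-regulated DEGs, against the same 8.44%, and the median was 0.75, with Pik3ap1, an adaptor of PI3-kinase, at 3.57. In the PKC and CARD9 arm, 4 of 10 were up-regulated and 1 was down-regulated, against the same 8.44% and 0.988%, with a median of 0.74.

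Rasgrp1, a Ras exchange factor abundant in hippocampal neurons, was the down-regulated gene of the PKC and CARD9 arm, at 774, 667 and 702 CPM in sham mice and 370, 359 and 250 CPM in BCAS mice, with a log2 fold change of -1.13 (adjusted P = 0.000552 in edgeR). Of 14 other genes listed here as negative regulators, 4 were up-regulated DEGs, against 8.44% of all tested genes, and the median was 0.31. Ptprc (CD45) had the largest value of this list at 3.96. The direction in which each of these genes acts on the pathway was not tested.

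**Figure D5:**
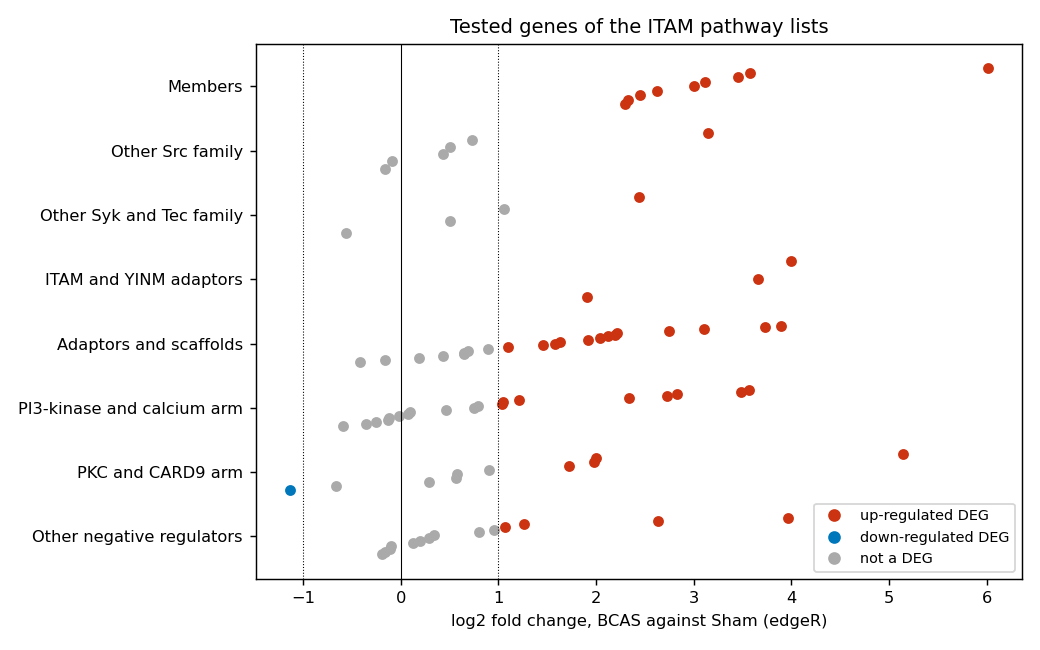
Log2 fold changes of the tested genes of each pathway list, 1 point for each gene, from edgeR. Dotted lines mark the fold threshold of 1 in each direction. All 9 genes of the set are up-regulated DEGs, as are all 3 ITAM and YINM adaptors, and Rasgrp1 is the only down-regulated DEG.

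The genes whose profiles over the 6 libraries were most like the mean profile of the 9 were sought among non-members with a mean of at least 1 CPM. Likeness was the root mean square distance between centred log2 CPM values. Among the 5 nearest were Sp140 (0.11), Hcls1 (0.12), a substrate of Syk and Src family kinases that is in the adaptor list above, Ikzf1 (0.12), a transcription factor of blood cells, and Nlrc5 (0.13), a regulator of MHC class I genes. Among the 9 genes themselves, Vav1 (0.11) and Inpp5d (0.11) were nearest to their common mean and Fgr (1.21) was farthest from it.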

How the data were processed

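The 6 libraries were grouped by their labels. The authors trimmed and aligned the reads to mm10 (GRCm38) with HISAT2, counted them per gene with featureCounts and deposited raw counts with the exon length of each gene. Per the file headers, featureCounts 2.0.3 with GENCODE vM20 was used, each mate of a pair added its own count, no use was made of strand, and reads aligned to several places or overlapping several genes were skipped, while the submitters' processing notes name featureCounts 1.6.3. Inside the BCAS tables the columns are numbered 2 to 4. Symbols were matched for 54723 of 54752 genes.

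Counts were filtered with filterByExpr, normalized by TMM and compared with the quasi-likelihood test of edgeR 4.0.16 (limma 3.58.1, R 4.3.3), with Benjamini-Hochberg adjustment over 18617 genes. The study used DESeq2, which was run as an alternative (version 1.42.0). The common biological coefficient of variation was 0.161, and TMM factors were 0.964 to 0.984 in sham and 1.01 to 1.05 in BCAS libraries. Log2 CPM used a prior count of 2. The edgeR P values set the difference between groups against the variation among the 3 mice per group, with dispersion estimates moderated across genes. The fitting steps were tested on simulated data.

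The members, lists, pairs and motifs were chosen with earlier results of these data known. Genes named are the 9 members, each list's largest called rise and fall, the genes of the pairs, markers beside a result and the 5 genes of nearest profile. Yet others (Fcer1g, Hcst, Zap70, Fn1, Ccr2, Ly6c2, S100a8, Ngp) were named after their values were seen. Some genes that this rule names are not reported here. Alternatives were DESeq2, limma-voom, RLE factors, library totals, other count filters, no fold threshold, glmTreat, counts halved for mates, the replicate number as a block, another prior count, a shorter promoter window and leaving out each mouse.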

Additional observations from a re-analysis of the deposited data

How the results depend on the processing

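All 9 genes were up-regulated DEGs under each of the 17 settings run, the largest adjusted P value being 0.00279 for Plcg2 with glmTreat. The share of all tested genes called up-regulated was 4.30% with glmTreat to 18.1% without the fold threshold, and 8.44% in the main setting. Their log2 fold changes kept their direction, within 5.69 to 6.42 for Fgr, 3.14 to 3.74 for Btk and 2.05 to 2.51 for Plcg2. Over all genes there were 1755 DEGs, 5865 without the fold threshold and 812 with glmTreat against a log2 fold change of 1, since these settings change the threshold itself. The share of up-regulated genes among the calls was 89.5%, and 57.5% without the fold threshold. Of the pathway genes, 34 were up-regulated DEGs and 22 with glmTreat, beside 8.44% and 4.30% of all tested genes. With the replicate block there were 1600 DEGs (1444 up-regulated, 7.76% of tested genes), and all 9 genes were called. The numbers were not taken as a pairing of sham with BCAS mice. Equally numbered libraries had residual correlations of 0.036, -0.314 and -0.158. Sham and BCAS libraries of different numbers had -0.246 to 0.347. Such values, from residuals centred within each small group, cannot decide whether mice were paired. Leaving out each mouse gave 1313 to 1965 DEGs, and without BCAS mouse 3 the down-regulated DEGs went from 184 to 95 (without sham mouse 3, to 112). Library totals in place of TMM moved the median log2 fold change of all genes from 0.02 to 0.09. Inppl1 crossed the fold threshold with library totals (1.04) and without BCAS mouse 2 (1.03), and Vav2 and Hcst were not called with glmTreat (adjusted P = 0.422 and 0.293). The difference of Fgr from the microglia markers was 3.20 with a prior count of 0.5. The difference of the phosphatase score was 0.46, and 0.18 with all 7 other genes as activators, which was added after seeing the data. For these the cause was not tested. The core GGAAGT, added after seeing the data, matched in 6 genes in place of 2. Depth limits Fgr in sham mice, where libraries hold at most 6 counts.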
